A study of Mus musculus with 12 samples.

Results

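The CD300 and TREM receptors are single-pass membrane proteins of myeloid cells, and their expression was followed here in dendritic cells and macrophages that grew from mouse bone marrow. The genes were the CD300 genes Cd300a, Cd300lb, Cd300ld and Cd300lf, the TREM genes Trem1 and Trem2, and Tyrobp, whose product is the signalling adaptor DAP12. They were named with earlier results of these data known, so they are not an unselected sample of their families. All 7 were measured, each by the only probe set paired with that symbol alone, among 19938 genes on the array. Marrow of C57B/6 mice was grown for 6 days in 20 ng/ml GM-CSF, a myeloid growth factor, and the cells labelled as dendritic cells (GM-DC) and as macrophages (GM-MF) either stayed unstimulated or were given 10 ng/ml lipopolysaccharide (LPS), a bacterial ligand of Toll-like receptor 4, for 4 hours. The 4 groups are written GM-DC-US, GM-DC-LPS, GM-MF-US and GM-MF-LPS, with 3 arrays each and 12 in all. No group carried a transgene or deletion per the labels, and how the dendritic cells were parted from the macrophages is not given in the sources used here.

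CD300 receptors have an immunoglobulin domain that binds membrane lipids, among them those exposed on dying cells. Cd300a and Cd300lf carry tyrosine motifs in their own tails (immunoreceptor tyrosine-based inhibitory motifs, ITIMs) that recruit phosphatases and dampen activation. Cd300lb and Cd300ld have short tails and signal through adaptors. TREM1 and TREM2 also lack signalling motifs of their own and pair with TYROBP, whose activation motif (ITAM) is phosphorylated by SRC family kinases and binds the kinase SYK. TREM1 amplifies Toll-like receptor responses of neutrophils and macrophages, and TREM2 is a lipid and lipoprotein receptor of macrophages, microglia and osteoclasts.

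The start regions of 4 genes are shown because their expression differed between the groups in separate ways. Cd300lf had the largest difference between the cell types, Cd300lb fell most after LPS in GM-MF, Cd300a fell in both cell types, and Trem1 rose in both. RefSeq windows (mouse build GRCm38.p6, 250 bases before to 50 bases after the start of the gene) were found for 6 of the 7 genes. They are given 5′ to 3′ along the strand of the gene, at chr11:115133943-115134242 on the minus strand (Cd300lf), chr11:114934322-114934621 on the minus strand (Cd300lb), chr11:114889791-114890090 on the plus strand (Cd300a) and chr17:48232489-48232788 on the plus strand (Trem1). Capitals mark matches to a searched motif on either strand.
Cd300lf: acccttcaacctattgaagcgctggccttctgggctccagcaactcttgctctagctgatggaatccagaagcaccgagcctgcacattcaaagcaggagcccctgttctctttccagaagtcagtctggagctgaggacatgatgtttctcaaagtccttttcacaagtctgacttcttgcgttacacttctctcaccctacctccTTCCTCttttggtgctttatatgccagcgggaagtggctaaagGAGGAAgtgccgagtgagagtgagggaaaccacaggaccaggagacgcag
Cd300lb: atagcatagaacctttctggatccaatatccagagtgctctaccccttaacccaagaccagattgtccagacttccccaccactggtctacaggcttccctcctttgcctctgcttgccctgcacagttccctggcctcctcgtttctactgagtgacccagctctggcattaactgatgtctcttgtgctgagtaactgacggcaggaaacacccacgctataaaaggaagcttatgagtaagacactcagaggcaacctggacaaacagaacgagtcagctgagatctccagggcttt
Cd300a: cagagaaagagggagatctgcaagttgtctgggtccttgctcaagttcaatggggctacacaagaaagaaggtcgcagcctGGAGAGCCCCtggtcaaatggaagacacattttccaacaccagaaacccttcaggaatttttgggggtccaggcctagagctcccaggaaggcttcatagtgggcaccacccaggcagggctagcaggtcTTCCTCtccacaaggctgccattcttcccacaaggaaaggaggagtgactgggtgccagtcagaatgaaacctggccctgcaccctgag
Trem1: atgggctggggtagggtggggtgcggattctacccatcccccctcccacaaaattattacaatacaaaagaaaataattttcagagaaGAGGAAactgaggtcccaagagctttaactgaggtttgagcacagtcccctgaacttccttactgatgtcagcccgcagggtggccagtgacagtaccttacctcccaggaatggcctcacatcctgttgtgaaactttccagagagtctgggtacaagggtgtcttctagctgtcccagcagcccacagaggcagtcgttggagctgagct
The PU.1 core GAGGAA, bound by a transcription factor of myeloid genes, was found in the windows of Cd300lf (at positions 251 and, on the opposite strand, 208), Cd300a (212, opposite strand) and Trem1 (position 89), counted from 1 at the 5′ end. It was also in those of Cd300ld and Trem2, and 28.3% of all 32851 windows of this length hold it. A match to the NF-kB motif lay at position 82 of the Cd300a window, on the opposite strand, and another in the Cd300ld window, where it overlapped the PU.1 core. That motif is held by 8.46% of all windows. The AP-1 motif TGANTCA, held by 7.81% of windows, was found in the Trem2 window and in none of the 4 printed here. The Cd300lb window held no match to these motifs.

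Values are log2 expression as the authors deposited it, so a difference of 1 is 2-fold. Levels are set only against levels of the same gene, since probe sets differ in brightness. The 12 array medians lay between 4.41 and 4.54, and the highest value of each array between 13.5 and 13.7. No background call was available, so a value at or under the array medians is a signal not shown to lie above background, and a fold against it is a ratio of signals. Differences were tested with limma in one fit over all arrays, two-sided, with Benjamini-Hochberg adjustment over all 19938 genes, and a gene passed at an adjusted p under 0.05. The ± after a difference is its standard error, with n = 3 arrays per group. No label says that replicates came from separate mice or cultures, so each p-value reflects the scatter of 3 arrays against 3, which may be technical. The number of arrays limits the precision. Pairs of arrays within a group had correlations of 0.993 to 0.996 over genes, which are not independent replicates. The comparisons share arrays, since each group enters more than 1 of them.

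**Figure D1:**
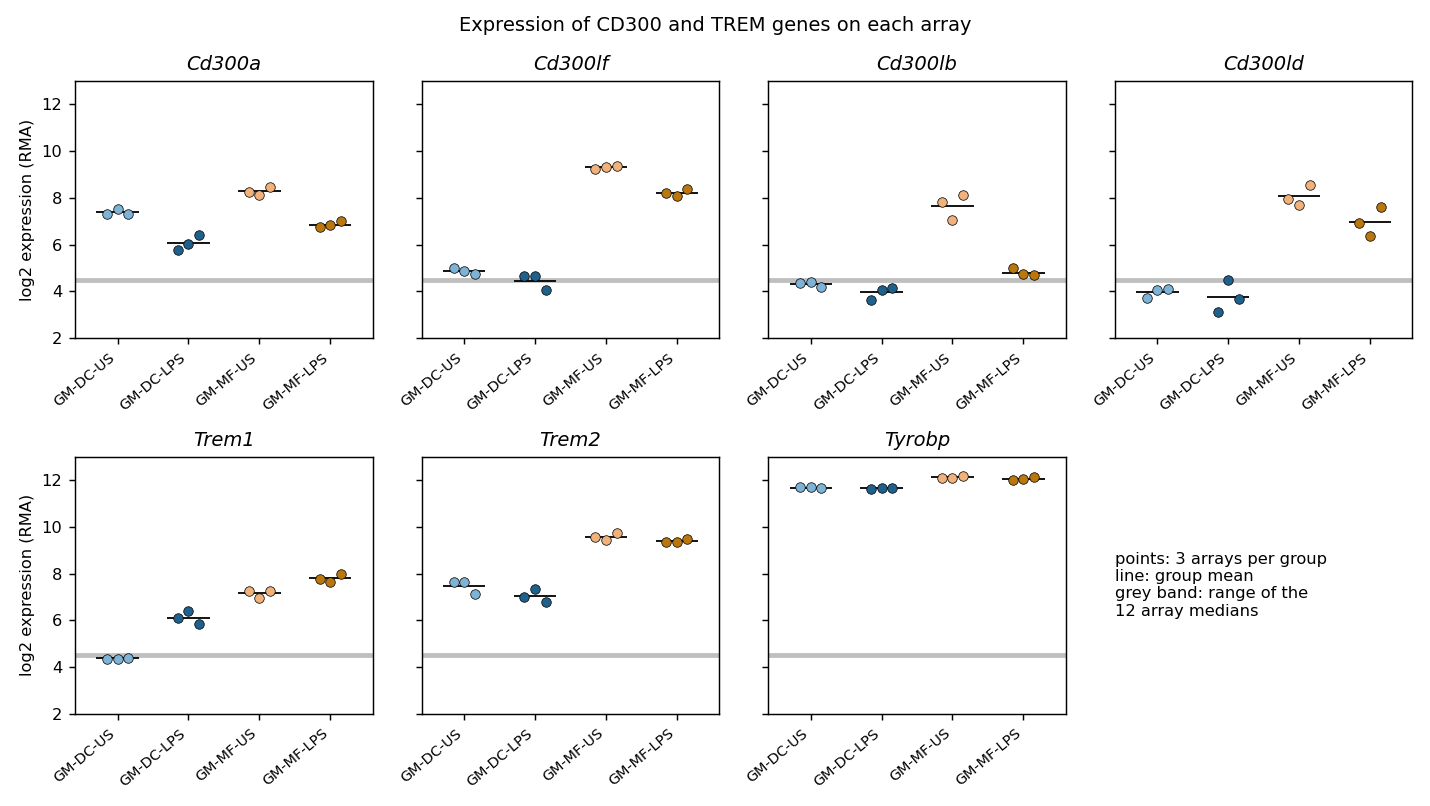
Log2 expression (y axis) of the 7 genes on each of the 12 arrays, by group (x axis); points are arrays, short lines are means of 3 arrays, and the grey band is the range of the array medians, 4.41 to 4.54. Each gene is lower on every GM-DC array than on every GM-MF array of the same stimulation, and Trem1 is the gene that stands higher with LPS in both cell types.

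All 7 genes were lower in GM-DC than in GM-MF, both without and with LPS. In all 14 comparisons the 3 arrays of GM-DC lay below the 3 of GM-MF. Of 12 other measured CD300, TREM and linked genes, 5 were lower without LPS, 1 was higher and 6 did not pass. Among all genes, 16.2% were called lower in GM-DC without LPS and 15.4% with LPS, and 11.7% in both. Arrays that did not overlap in this direction were found for 21.4% of genes without LPS and for 19.9% with LPS. The difference was at least 2-fold for 5 of the 7 without LPS and for 4 with LPS, against 7.02% and 6.5% of all genes. The folds ran from 1.36 to 21.6 without LPS and from 1.33 to 13.6 with it. The median difference of the 7 was -2.79 without LPS and -1.69 with LPS, beside -0.01 and 0.00 over all genes. In bulk samples such as these, fewer cells of a type and less RNA per cell cannot be told apart.

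The response to LPS split the genes. In GM-MF, 5 of 7 passed, the 4 CD300 genes falling and Trem1 rising, while 17.4% of all genes passed, 10.8% falling and 6.54% rising (37.7% of those calls rising, 49.4% after cyclic loess). In the same comparison 6 of 10 dendritic cell markers rose, and their part in these changes was not tested. In GM-DC, Cd300a fell and Trem1 rose, and the other 5 did not pass. With the replicate number as a block within each cell type 4 of 7 passed, Cd300lf and Trem2 falling too. Without that block 9.72% of all genes passed in GM-DC, 4.49% falling and 5.23% rising. Cd300lb and Trem1 also passed the test of the difference between the LPS responses of the cell types, which 7.59% of all genes passed.

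**Figure D2:**
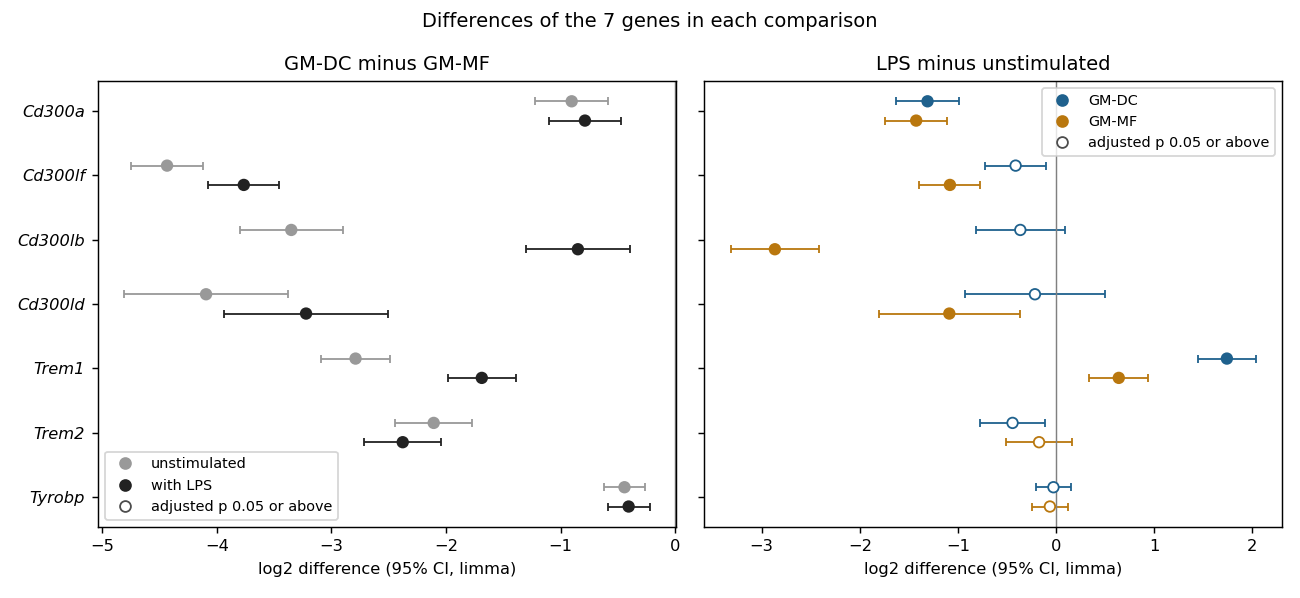
Log2 differences with 95% confidence intervals from limma (x axis) for the 7 genes (y axis): on the left GM-DC minus GM-MF, on the right LPS minus unstimulated; open points have an adjusted p of 0.05 or above. The cell type difference of Cd300lb shrank from -3.35 to -0.85 with LPS, and on the right the points of Trem1 lie above 0 while those of Cd300a lie at -1.31 and -1.43.

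Cd300a, an inhibitory receptor for phosphatidylserine and phosphatidylethanolamine, stood at 8.26, 8.10 and 8.47 in GM-MF-US and at 7.31, 7.53 and 7.29 in GM-DC-US. With LPS the arrays read 6.74, 6.83 and 6.99 in GM-MF and 5.77, 6.04 and 6.39 in GM-DC. The groups were ordered GM-MF-US, GM-DC-US, GM-MF-LPS and GM-DC-LPS, and no neighbours in that order overlapped, so the unstimulated cells of both kinds lay above the stimulated ones. GM-DC was 1.87-fold lower without LPS (-0.90 ± 0.15, adjusted p = 0.000153) and 1.73-fold lower with LPS (-0.79 ± 0.15, adjusted p = 0.000505). LPS lowered Cd300a by 2.48-fold in GM-DC (-1.31 ± 0.15, adjusted p = 3.34e-05) and by 2.69-fold in GM-MF (-1.43 ± 0.15, adjusted p = 8.13e-06). The responses differed by 0.12 (95% interval -0.33 to 0.56, adjusted p = 0.868). Genes that fell in both cell types made up 2.35% of all genes.

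Cd300lf, the other ITIM receptor of the group and the receptor of murine norovirus, read 9.24, 9.31 and 9.36 in GM-MF-US but 4.97, 4.88 and 4.75 in GM-DC-US. With LPS the GM-MF arrays were at 8.21, 8.06 and 8.39 and the GM-DC arrays at 4.66, 4.64 and 4.07. All 6 GM-MF arrays lay above all 6 GM-DC arrays, and the GM-DC-LPS mean of 4.46 lay within the range of the array medians. Without LPS the difference was 21.6-fold (-4.43 ± 0.15, adjusted p = 5e-12) and with LPS 13.6-fold (-3.76 ± 0.15, adjusted p = 2.48e-11). LPS lowered Cd300lf by 2.12-fold in GM-MF (-1.08 ± 0.15, adjusted p = 8.91e-05). In GM-DC the change was -0.41 ± 0.15 (adjusted p = 0.102), and with the replicate number as a block within each cell type its adjusted p was 0.0387. The difference of the responses was 0.67 ± 0.21 (adjusted p = 0.0645), and 0.0241 with that block. It was 0.00324 without replicate 3 of GM-DC-LPS, the array at 4.07.

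Cd300lb, an activating receptor that pairs with TYROBP, changed with the cell type and with LPS in GM-MF. Its GM-MF-US arrays read 7.83, 7.07 and 8.10, and its GM-MF-LPS arrays 4.99, 4.74 and 4.67. The GM-DC arrays were at 4.37, 4.41 and 4.17 without LPS and at 3.64, 4.07 and 4.15 with it. GM-MF-US thus stood apart from the other 3 groups, which came close to the array medians, and both GM-DC groups had means under them. The 3 arrays of each group did not overlap with those of the next. GM-DC was 10.2-fold lower than GM-MF without LPS (-3.35 ± 0.21, adjusted p = 4.97e-09) and 1.80-fold lower with LPS (-0.85 ± 0.21, adjusted p = 0.0045). LPS lowered it by 7.29-fold in GM-MF (-2.87 ± 0.21, adjusted p = 2.94e-07), and the change in GM-DC was -0.36 ± 0.21 (adjusted p = 0.403). The responses differed by 2.50 ± 0.30 (95% interval 1.86 to 3.14, adjusted p = 8.14e-05). The GM-DC-US mean, 4.32, already lay under the array medians, so a fall in GM-DC might not be seen in full.

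Cd300ld, a short-tailed receptor of the same cluster, read 7.93, 7.68 and 8.57 in GM-MF-US and 6.94, 6.37 and 7.60 in GM-MF-LPS. In GM-DC it was at 3.73, 4.05 and 4.12 without LPS and at 3.10, 4.50 and 3.66 with LPS, so both GM-DC groups had means under the array medians and overlapped each other. With LPS its arrays were the most scattered of the 7 genes, with an SD of 0.70 in GM-DC-LPS against 0.62 in GM-MF-LPS (n = 3). GM-DC was 17.1-fold lower without LPS (-4.09 ± 0.33, adjusted p = 9.7e-08) and 9.33-fold lower with it (-3.22 ± 0.33, adjusted p = 1.35e-06). The fall after LPS in GM-MF was 2.13-fold (-1.09 ± 0.33, adjusted p = 0.0354). That call was lost after cyclic loess (adjusted p = 0.0586), with all probe sets tested (0.102) and with a trended, robust variance (0.0714). It was also lost without replicate 1 (0.0682) or 3 (0.162) of GM-MF-US and without replicate 1 (0.0904) or 2 (0.169) of GM-MF-LPS. In GM-DC the change was -0.21 ± 0.33 (adjusted p = 0.835), and the responses differed by 0.87 (95% interval -0.14 to 1.88, adjusted p = 0.369). Without replicate 2 of GM-DC-LPS that difference was 0.50, and without replicate 2 of GM-MF-LPS 0.57. Over all single arrays left out it ran from 0.50 to 1.20.

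Trem1 was the gene of the group that rose. Its arrays read 4.33, 4.36 and 4.40 in GM-DC-US and 6.10, 6.38 and 5.83 in GM-DC-LPS, against 7.25, 6.96 and 7.25 in GM-MF-US and 7.75, 7.64 and 7.99 in GM-MF-LPS. The order was GM-MF-LPS, GM-MF-US, GM-DC-LPS and GM-DC-US with no overlap between neighbours, and GM-DC-US lay under the array medians. LPS raised Trem1 by 3.34-fold in GM-DC (1.74 ± 0.14, adjusted p = 9.19e-07) and by 1.56-fold in GM-MF (0.64 ± 0.14, adjusted p = 0.00433). The rise was larger in GM-DC, by 1.10 ± 0.20 (95% interval 0.68 to 1.52, adjusted p = 0.00242). Among all genes 2.2% rose in both cell types, and 4.53% passed with a response more positive in GM-DC. GM-DC was 6.91-fold lower than GM-MF without LPS (-2.79 ± 0.14, adjusted p = 3.74e-10) and 3.22-fold lower with it (-1.69 ± 0.14, adjusted p = 1.09e-07), so stimulated GM-DC stayed below unstimulated GM-MF on every array.

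Trem2 differed between the cell types, and its change with LPS did not pass. It read 9.58, 9.42 and 9.72 in GM-MF-US and 9.37, 9.36 and 9.48 in GM-MF-LPS, and 7.63, 7.64 and 7.13 in GM-DC-US and 6.99, 7.32 and 6.76 in GM-DC-LPS. The GM-MF arrays all lay above the GM-DC arrays, while within each cell type the arrays with and without LPS overlapped. GM-DC was 4.31-fold lower without LPS (-2.11 ± 0.16, adjusted p = 3.36e-08) and 5.20-fold lower with LPS (-2.38 ± 0.16, adjusted p = 8.34e-09). The LPS change was -0.44 ± 0.16 in GM-DC (adjusted p = 0.103) and -0.17 ± 0.16 in GM-MF (adjusted p = 0.564), and these differed by -0.27 (95% interval -0.74 to 0.20, adjusted p = 0.624). The fall in GM-DC passed with the replicate block within each cell type (adjusted p = 0.0158). It also passed without replicate 3 of GM-DC-US (0.0186) or replicate 2 of GM-DC-LPS (0.0371).

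Tyrobp, the adaptor of several of these receptors, had the smallest differences of the 7. The arrays read 12.10, 12.10 and 12.16 in GM-MF-US, 12.01, 12.03 and 12.12 in GM-MF-LPS, 11.69, 11.69 and 11.64 in GM-DC-US and 11.62, 11.65 and 11.68 in GM-DC-LPS. Every GM-DC array was below every GM-MF array, and within each cell type the arrays with and without LPS overlapped. GM-DC was 1.36-fold lower without LPS (-0.44 ± 0.09, adjusted p = 0.000648) and 1.33-fold lower with LPS (-0.41 ± 0.09, adjusted p = 0.00126). The change with LPS was -0.03 (95% interval -0.21 to 0.16, adjusted p = 0.934) in GM-DC and -0.06 (95% interval -0.25 to 0.12, adjusted p = 0.730) in GM-MF.

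The other genes of the receptor clusters were read in the order of the RefSeq gene table. The CD300 cluster on chromosome 11 holds 11 genes there, of which 7 were measured. Beside 11.7% of all genes, 5 of the 7 were lower in GM-DC with and without LPS. Besides the 4 described above this was Cd300c2 (-3.66 ± 0.20, adjusted p = 9.64e-10, without LPS), an activating receptor, at 9.72 ± 0.32 in GM-MF-US and 6.06 ± 0.15 in GM-DC-US (SD, n = 3). Its neighbours did not all follow. Cd300c, at 6.18 in GM-MF-US and 5.89 in GM-DC-US, differed by -0.29 ± 0.12 (adjusted p = 0.072), and Cd300e, which lies next to Cd300lf, by -0.09 ± 0.10 (adjusted p = 0.592). Both Cd300e means, 4.52 and 4.43, were near the array medians. Cd300ld2, Cd300ld3, Cd300ld4 and Cd300ld5, close copies that lie between Cd300c2 and Cd300e, had no probe set of their own symbol alone. How far probes for one copy read another was not tested, so values of Cd300ld and Cd300c2 may hold signal of a relative.

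The TREM cluster on chromosome 17 holds 7 genes, all measured. All 7 were lower in GM-DC without LPS and 5 with LPS, beside 16.2% and 15.4% of all genes. Both counts include Trem1 and Trem2, described above. Treml2 differed by -2.06 ± 0.14 without LPS and -2.02 ± 0.14 with it, and Trem3, an activating receptor beside Trem1, by -0.83 ± 0.13 and -1.09 ± 0.13, its GM-DC-US mean of 3.93 lying under the array medians. Treml4 (-1.10 ± 0.19, adjusted p = 0.000219) fell after LPS in GM-MF (-0.84 ± 0.19, adjusted p = 0.00513), and with LPS its cell type difference did not pass (-0.35 ± 0.19, adjusted p = 0.172). The model B430306N03Rik, next to Trem2 and chosen here for its position, differed by -4.01 ± 0.12 without LPS. Treml1, on the other side of Trem2, differed by -0.38 ± 0.13 (adjusted p = 0.0296). The rise of Trem1 with LPS had no counterpart that passed among its 6 neighbours in either cell type.

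**Figure D3:**
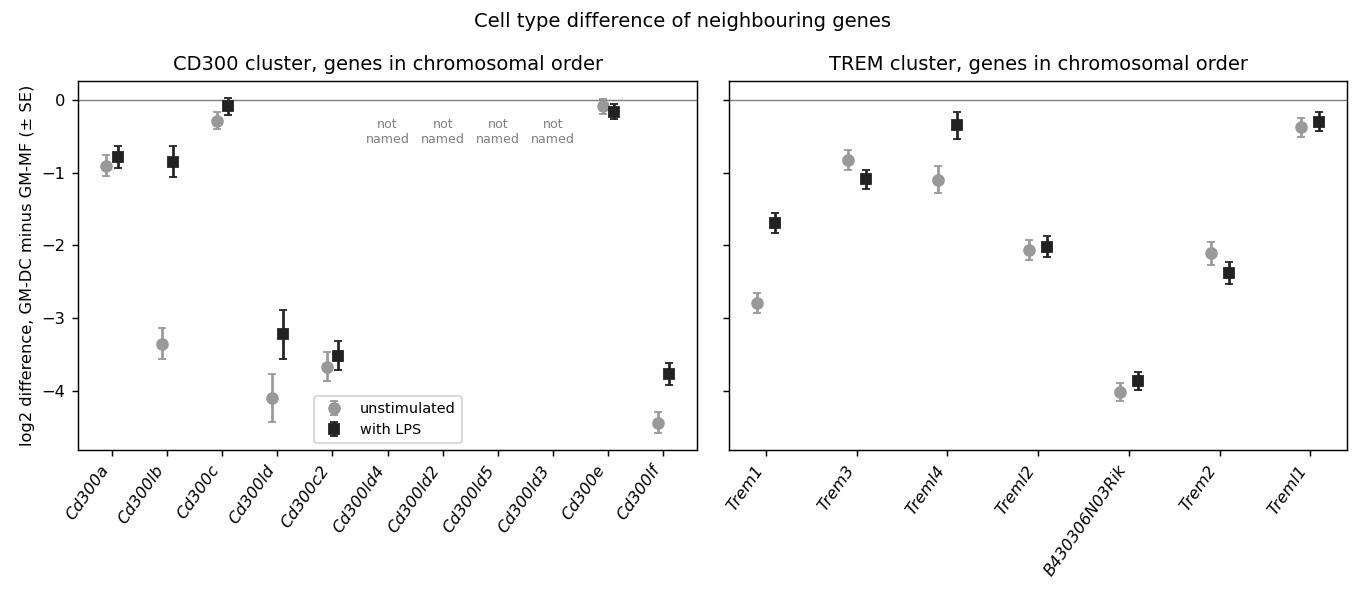
Log2 difference, GM-DC minus GM-MF, with its standard error (y axis) for the genes of the CD300 cluster (left) and TREM cluster (right) in chromosomal order (x axis); grey circles are unstimulated cells and black squares cells with LPS. In the CD300 cluster Cd300c and Cd300e lie near 0 between genes at -3.35 to -4.43, and Cd300lb is the gene whose circle and square lie farthest apart.

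Of 18 other CD300, TREM and linked immunoglobulin-fold genes listed, 12 were measured. Without LPS 5 were lower in GM-DC, 1 was higher and 6 did not pass, with a median of -0.21, and 34.2% of all genes were called in either direction. The higher one was Fcmr, a receptor for IgM (0.66 ± 0.13). With LPS 3 were lower and 9 did not pass, beside 36.3% of all genes called (57.6% of them higher, 47.2% after cyclic loess). By limma 0 of the 12 passed for LPS in GM-DC, with 0 at an unadjusted p under 0.05, beside 9.72% of all genes passing. In GM-MF 1, Treml4, passed, which is 8.33% of the list beside 17.4% of all genes.

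Receptor expression was set beside that of the signalling machinery. Of 24 measured genes of ITAM adaptors and downstream signalling, 15 were lower in GM-DC without LPS, 4 were higher and 5 did not pass, with a median of -0.65. Calls made up 79.2%, beside 34.2% of all genes. Lcp2, the adaptor SLP-76, differed by -3.87 ± 0.13, Pik3ap1, the adaptor BCAP, by -3.72 ± 0.12, the SRC family kinase gene Fgr by -3.15 ± 0.18 and Vav1 by -2.72 ± 0.14. The GM-DC-US mean of Fgr, 4.44, lay within the range of the array medians, a signal not shown to lie above background. Hcst, which encodes the adaptor DAP10 and lies next to Tyrobp on chromosome 7, was lower too (-2.24 ± 0.11), at 9.28 ± 0.06 in GM-MF-US and 7.04 ± 0.18 in GM-DC-US (SD, n = 3). Its difference was larger than that of Tyrobp, though that contrast between the genes was not tested. Fcer1g, the other ITAM adaptor of myeloid receptors, differed by -1.27 ± 0.12, and Syk by -0.56 ± 0.11. Pik3r1, a regulatory subunit of PI3 kinase, was higher in GM-DC (2.29 ± 0.13), as was Plcg1 (1.33 ± 0.09).

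With LPS 11 of the 24 signalling genes were lower in GM-DC, 6 were higher and 7 did not pass, with a median of -0.32. The share called was 70.8%, beside 36.3% of all genes. LPS called 9 of them in GM-DC (3 higher, 6 lower) and 15 in GM-MF (4 higher, 11 lower), which is 37.5% and 62.5% beside 9.72% and 17.4% of all genes. Fgr rose in GM-DC (1.72 ± 0.18), from a mean within the range of the array medians, and fell in GM-MF (-1.18 ± 0.18). Its responses differed by 2.90 ± 0.25 (adjusted p = 4.36e-06). Plcg2, a phospholipase downstream of SYK, did likewise (0.97 ± 0.18 and -1.18 ± 0.18), with a difference of 2.15 ± 0.26 (adjusted p = 9.8e-05). Src rose in GM-MF (1.18 ± 0.12), and Syk fell in GM-DC (-0.61 ± 0.11). The direction of these genes is that of the RNA and says nothing of receptor signalling, which was not measured.

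The list of inhibitory phosphatases and docking proteins also held other regulators of tyrosine kinase signalling. Of its 13 genes, 7 were lower in GM-DC without LPS, 4 were higher and 2 did not pass. Calls made up 84.6%, beside 34.2% of all genes. Ptpn6, which encodes SHP-1, differed by -1.28 ± 0.10, Inpp5d, which encodes SHIP-1, by -1.08 ± 0.19 and Dok2 by -2.24 ± 0.13, while Cblb, a ubiquitin ligase, was higher in GM-DC (2.89 ± 0.10). With LPS 6 were lower and 4 higher, which is 76.9% called beside 36.3% of all genes. Inpp5d fell after LPS in both cell types, by 1.01 ± 0.19 on the log2 scale in GM-DC and by 2.41 ± 0.19 in GM-MF, the same direction as Cd300a. Ptpn6 rose in GM-DC (0.57 ± 0.10).

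A list of other receptors that use TYROBP, or are related to such receptors, had members at both ends. Pairing with TYROBP was not measured. Of 13 measured, 6 were lower in GM-DC, 2 were higher and 5 did not pass, both without and with LPS. The share called was 61.5%, beside 34.2% of all genes without LPS and 36.3% with it. Clec5a, a C-type lectin, differed by -4.80 ± 0.18 without LPS, Cd200r4 by -4.70 ± 0.24, and the paired immunoglobulin-like receptors Pilrb1 and Pilrb2 by -4.44 ± 0.19 and -4.22 ± 0.21. The GM-DC-US means of these 4, from 3.79 to 4.26, lay under the array medians, so the differences are ratios to a signal not shown to lie above background. Klrk1, the receptor NKG2D, and Klrd1, the receptor CD94, were higher in GM-DC (2.20 ± 0.13 and 2.72 ± 0.18). For LPS 2 of the 13 passed in GM-DC (15.4%, beside 9.72% of all genes) and 3 in GM-MF (23.1%, beside 17.4%), and with the replicate block within each cell type the counts were 4 and 5.

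Other inhibitory receptors, most of them with ITIMs, were lower in GM-DC for 12 of 15 measured genes without LPS and for 11 with LPS. The medians were -2.96 and -2.38, and Siglecg was the member that was higher (1.36 ± 0.16 without LPS). Of all genes 16.2% were called lower without LPS and 15.4% with LPS. Milr1, an inhibitory receptor first described on mast cells, differed by -5.37 ± 0.18 without LPS, Pilra by -5.10 ± 0.13, the lectin gene Clec4a2 by -4.49 ± 0.15 and the siglec Cd33 by -4.10 ± 0.15. These are the members with the largest differences, and the smallest that passed were those of Pirb (-0.74 ± 0.11) and Siglece (-0.50 ± 0.15). The GM-DC-US mean of Milr1, 3.66, lay under the array medians. By limma LPS raised 5 of the 15 in GM-DC and lowered 0 (4 at an unadjusted p under 0.05). The share called was 33.3%, beside 9.72% of all genes. Pilra rose by 2.50 ± 0.13 (adjusted p = 9.36e-09), while Cd300a fell. In GM-MF 2 fell, or 13.3% of the 15. These were Lair1 (-0.99 ± 0.13) and Cd200r1 (-1.27 ± 0.18), which has no ITIM. Of all genes 17.4% passed in GM-MF and 10.8% fell. With the replicate block within each cell type 8 of the 15 passed in GM-DC, 5 higher and 3 lower.

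Genes of ligands, of proteases that shed the receptors and of partners went both ways, with 5 of 14 higher in GM-DC, 5 lower and 4 not passing, without and with LPS. Among those higher in GM-DC were Pglyrp1, a ligand of TREM1 (3.81 ± 0.14), at 9.55 ± 0.06 in GM-DC-US and 5.74 ± 0.21 in GM-MF-US (SD, n = 3), and Clu, a lipoprotein bound by TREM2 (4.99 ± 0.16), at 10.22 ± 0.12 and 5.23 ± 0.38. These ran opposite to their receptors. Apoe, another lipoprotein bound by TREM2, was lower in GM-DC (-1.65 ± 0.33), as was Adam17, which sheds TREM2 from the membrane (-2.35 ± 0.13). The share of the list called was 71.4%, beside 34.2% of all genes without LPS and 36.3% with it. By limma LPS moved 0 of the 14 in GM-DC, where 4 had an unadjusted p under 0.05 and 1 passed with the replicate block within each cell type, after cyclic loess and under either low-value filter. With a trended variance 3 passed, 1 higher and 2 lower. In GM-MF 4 passed, among them Sema6d (-1.36 ± 0.10), a semaphorin that binds a plexin partner of TREM2, and Adam10 (-0.74 ± 0.11), another sheddase. These 4 are 28.6% of the list, beside 17.4% of all genes.

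Genes of the disease-associated programme of mouse microglia, part of which depends on Trem2 in Alzheimer models, formed a further list of 19 measured genes, Tyrobp among them. Both without and with LPS 16 of them were lower in GM-DC, 3 did not pass and no member was higher, with medians of -1.79 and -1.91. Lower calls made up 84.2% of the list, beside 16.2% and 15.4% of all genes. The lectin receptor gene Clec7a differed by -4.22 ± 0.16 without LPS, Timp2 by -3.51 ± 0.20, the receptor kinase gene Axl by -3.50 ± 0.25 and the lysosomal membrane gene Cd68, also in the macrophage markers, by -3.37 ± 0.10. Many of these are lysosomal or macrophage genes, and Apoe and Lgals3 were also counted above. LPS called 3 of the 19 in each cell type (15.8%, beside 9.72% of all genes in GM-DC and 17.4% in GM-MF), and 5 in GM-MF with the replicate block within each cell type. Timp2 had a GM-DC-US mean of 4.32, under the array medians. Among those called, Axl and Csf1 rose in GM-DC (1.58 ± 0.25 and 1.59 ± 0.15).

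**Figure D4:**
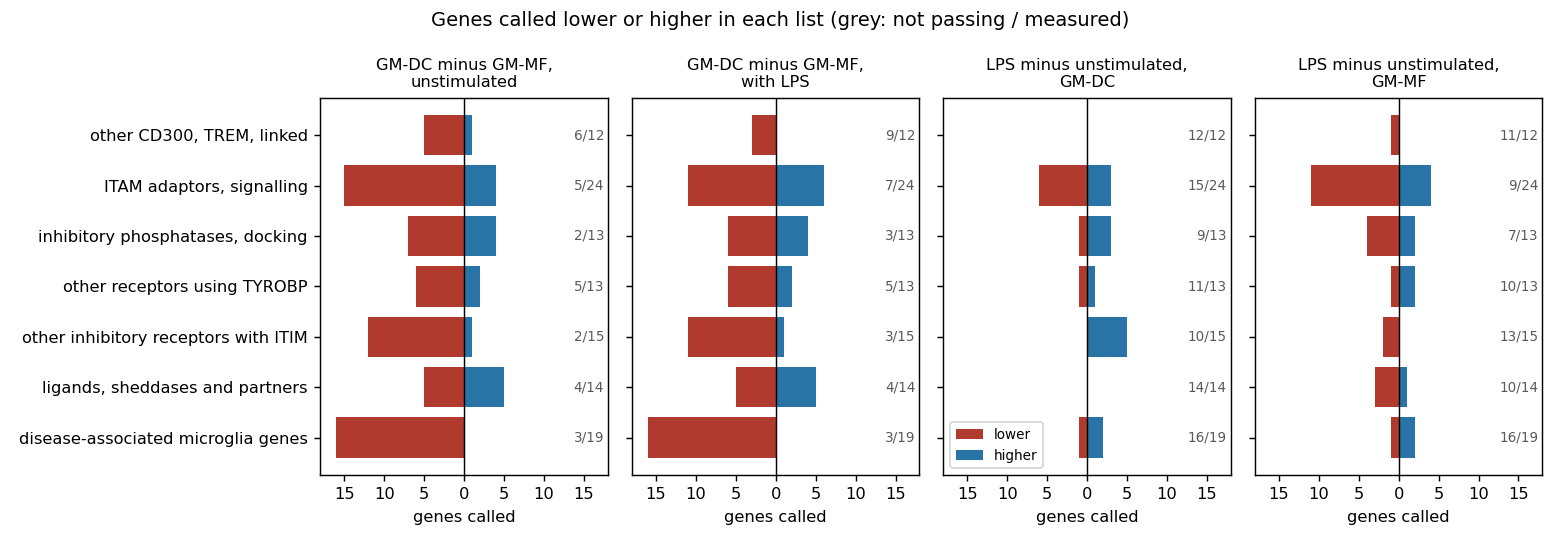
Number of genes called lower (red, to the left) or higher (blue, to the right) in each gene list (rows) for 4 comparisons (panels); grey figures give the genes not passing over those measured. The inhibitory receptors and disease-associated microglia genes have 12 of 15 and 16 of 19 genes lower in unstimulated GM-DC, and the ligand list has 5 in each direction.

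For each gene whose group means spanned at least 1 log2 unit, the genes with the most similar pattern were found among 9611 genes above the median level, by the root mean square difference of the 4 group means after each gene was centred. This is a description over 4 means that share arrays, and Tyrobp, with a span of 0.47, was left out. Trem2 had the closest patterns, Hexa at 0.03 log2 units, Man2b1 at 0.04 and Alas1 at 0.05. The patterns most like Trem1 were those of Ikbke (0.09), Tnfaip2 (0.13) and Glrx (0.14), and those most like Cd300a were Spint1 (0.13), Il6ra (0.14) and Ctns (0.17). Cd300ld was nearest to Clec7a (0.12), Serpinb8 (0.12) and Mirt2 (0.13). Cd300lf was nearest to Ptgr1 (0.11), Cmklr1 (0.17) and its own cluster gene Cd300ld (0.23). Cd300lb, whose level dropped so far with LPS in GM-MF, had no pattern as near, the closest being Slc36a1 (0.32), Lhfpl2 (0.32) and Slc40a1 (0.33).

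Markers of cells the cultures could hold were read with the same fit. Of all genes, 16.2% were called lower in GM-DC without LPS and 15.4% with LPS. In either direction 34.2% and 36.3% were called. After LPS 6.54% of all genes rose and 10.8% fell in GM-MF, and 5.23% rose and 4.49% fell in GM-DC. Of 10 dendritic cell markers 9 were higher in GM-DC without and with LPS and 1 did not pass, and all 9 measured macrophage markers were lower. The mean log2 level of the macrophage list was 5.80 to 5.96 over the GM-DC-US arrays and 10.03 to 10.29 over the GM-MF-US arrays. Of 5 measured monocyte markers 4 were lower in GM-DC without LPS, and 4 of 6 osteoclast markers. Some CD300 and TREM genes are also known from neutrophils. Of 15 neutrophil and granule genes 5 were lower in GM-DC without LPS, 3 were higher and 7 did not pass, and with LPS 8, 2 and 5. The mean of that list was 5.23 to 5.50 over the arrays of GM-DC-US, 5.25 to 5.40 in GM-DC-LPS, 5.69 to 5.84 in GM-MF-US and 5.88 to 6.08 in GM-MF-LPS. Ly6g and Cxcr2 had means of 3.54 to 4.34 and 2.92 to 3.19, under the array medians in every group, while S100a8 ranged from 9.40 to 10.90. Of the 15 genes, 4 to 6 had means under the array medians in a given group. The cell type differences in the list ran from -5.20 to 2.03 without LPS and from -6.25 to 2.15 with LPS. With LPS 6 of the 10 dendritic cell markers rose in GM-MF, with a median change of 0.56, and the mean of that list was 4.98 to 5.33 over the GM-MF-US arrays and 5.71 to 6.08 over the GM-MF-LPS arrays. In GM-DC 1 of them rose and 1 fell. Of the 9 macrophage markers 2 rose and 1 fell in GM-MF, and 3 rose and 1 fell in GM-DC. Of the neutrophil and granule genes 1 rose in GM-MF, and 1 rose and 1 fell in GM-DC. The part of these cells and markers in the differences above was not tested. Mast cell and basophil genes had list means of 3.21 to 3.77, and 1 of 10, Hdc, passed with LPS. Of 6 markers of conventional DC type 1, 2 were higher and 2 lower in GM-DC without LPS. Plasmacytoid DC, eosinophil and T and NK cell lists had 1 of 5 genes in each direction, and 0 of 3 B cell genes passed in limma (0 at an unadjusted p under 0.05).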

How the data were processed

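RNA of 12 samples was hybridised to Affymetrix Mouse Gene 1.0 arrays, 1 array per sample, and samples were grouped by their titles. The deposited table holds log2 values that the authors made by RMA (the submitters' processing notes name RMA and R 3.0.2). RMA settings are not given in the sources used here, and base 2 was taken from the range of 1.18 to 13.7. Values were used as deposited, with no filter. Of 35556 probe sets 21789 had 1 gene symbol in the platform annotation, 1621 several and 12146 none, and per gene the probe set with the highest mean was kept, leaving 19938 genes. Entrez identifiers of 21698 of those probe sets, and of all 7 genes, were found in the RefSeq table (GRCm38.p6), which was used for gene order and start windows.

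Group means were fitted with limma 3.58.1 in R 4.3.3 (lmFit, contrasts.fit, eBayes without trend, 8 residual degrees of freedom) for 5 comparisons, with Benjamini-Hochberg adjustment over all genes. On simulated data the same code was tested and recovered known changes. Motifs were searched as exact letters on both strands (Python 3.11.15). Protein sequences were not used here.

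Replicate numbers recur in all groups. After centring on group means, same-numbered arrays correlated at 0.119 to 0.363 between the GM-DC groups and at 0.104 to 0.257 between the GM-MF groups. These were above 0.1 in 3 of 3 pairs each. Different-numbered arrays correlated at -0.25 to 0.164 between the GM-DC groups, with 2 of 6 pairs above 0.1. Between the GM-MF groups they lay at -0.216 to 0.0254, with 0 of 6 above 0.1. Across cell types, same-numbered arrays correlated at -0.168 to 0.0117 between the unstimulated groups. They reached 0.156 between the LPS groups and 0.233 between GM-DC-LPS and GM-MF-US. The numbers were used as blocks in alternative fits only, and the main tests above took no account of pairing. Any pairing within a cell type is read from the data and not from the labels.

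The genes and lists were chosen with earlier results of these data known. Named from each list were up to 4 genes with the largest differences among those that passed, or the 2 with the highest mean. Fcmr, Fcer1g, Pik3r1, Plcg1, Siglecg, Pirb, Siglece and Hdc were named after their values were seen, and neighbours were named for their position. Ly6g, Cxcr2 and S100a8 were also named outside the rule for lists. A gene named for a comparison could also be given for another. Alternatives were other scalings, low-value filters, probe set rules, variance models, replicate blocks and leaving out each array.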

Additional observations from a re-analysis of the deposited data

Results flagged for a closer look

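Results were singled out where the LPS response differed between the cell types by limma's test of that difference, given here as the response in GM-DC minus that in GM-MF on the log2 scale. Of each list, up to 4 genes with the largest difference are given. Among the receptors these were Cd300lb (2.50) and Trem1 (1.10), and both calls held in all alternatives run. Their GM-DC-US means, 4.32 and 4.36, lay under the array medians. A fall of Cd300lb in GM-DC might therefore not be seen in full. Of the 7 signalling genes that passed, those given are Fgr (2.90), Plcg2 (2.15), Pik3cd (1.15) and Src (-1.01). In the list of inhibitory phosphatases, docking proteins and other regulators they were Dok2 (1.64), Cblb (-1.44), Inpp5d (1.40) and Ptpn6 (0.65). In the list of other receptors that use TYROBP, or are related to such receptors, they were Klrk1 (-1.55), Plxna1 (1.34) and Klrd1 (-1.17). Of the 5 other inhibitory receptors that passed they were Pilra (2.23), Milr1 (0.92), Lilrb4a (0.80) and Sirpa (0.79). For ligands, sheddases and partners they were Sema6d (1.54), Il4ra (-0.86), Psen2 (0.65) and Adam10 (0.59). In the microglia list they were Cst7 (-1.20), Clec7a (1.03), Csf1 (0.90) and Gpnmb (-0.54). The calls of Milr1, Adam10, Gpnmb and Csf1 were lost in several alternatives, among them leaving out single arrays, where their highest adjusted p-values in limma were 0.104, 0.0935, 0.0817 and 0.0539.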

How the results depend on the processing

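Across 23 alternatives the 7 genes gave 784 values, of which 766 kept direction and side of the threshold, 7 lost the call, 9 gained one and 2 changed sign. All 7 calls of GM-DC below GM-MF held without and with LPS in every alternative run. The 7 losses were those of Cd300ld after LPS in GM-MF. With the replicate block within each cell type 4 of the 7 genes passed for LPS in GM-DC, not 2, adding Cd300lf and Trem2; the replicate block over all 12 arrays changed no call of the 7 genes. The LPS change of Cd300ld in GM-DC ran from -0.59 to 0.11 when single arrays were left out, and the difference of responses of Cd300a from -0.047 to 0.26. That of Cd300c2 ran from -0.025 to 0.36, and without replicate 3 of GM-MF-US it was -0.01. That of Treml2 ran from -0.14 to 0.21, was -0.01 without replicate 1 of GM-DC-US and -0.016 after cyclic loess. None of these 4 passed in limma. Other named genes gave 2724 values, of which 2662 were unchanged in this sense, 48 lost the call, 9 gained one and 5 changed sign. With single arrays left out, 6197 to 6940 genes were called between the cell types without LPS, 6593 to 7407 with LPS, 1331 to 2009 for LPS in GM-DC, 2717 to 3623 in GM-MF and 1180 to 1748 for the difference. A trended variance moved the microglia list from 3 to 5 genes for LPS in both cell types, and a trended, robust one to 6 in GM-DC. The causes were not tested. Low values have no background call here. That limits what can be said of Cd300lb, Cd300ld, Cd300lf, Trem1, Fgr and other genes given above as under the array medians in GM-DC.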
